A study of Sus scrofa with 3 samples.

Results

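Fatty acid synthesis, desaturation and elongation in the liver were described by 10 genes chosen by name for their place in the route, with earlier results of these data known. They are the enzymes ACLY, ME1, ACACA, FASN, SCD, FADS1, ELOVL5 and ELOVL6 and the transcription factors SREBF1 and MLXIPL. Of the 10 genes, 9 had a row among the 34579 features of the expression table, and ELOVL5 was not analysed here. Of those 9, 8 were listed as mRNA and reached an FPKM of 1 in every library. ELOVL6 was also above an FPKM of 1 in all 3 libraries but was listed as another kind of RNA, so its values are given but it entered no count of differing mRNA features.

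The livers came from male Chinese Wuzhishan pigs, a miniature breed, that were 6 to 7 months old when they entered the study, before an acclimation period and the diet. IM pigs were intact, CM pigs were castrated, and CMT pigs were castrated and given testosterone propionate at 10 mg per kg of body weight each week. All 3 groups received the high-fat and high-cholesterol (HFC) diet for 12 weeks, so no library shows the liver on an ordinary diet. Each group is 1 RNA-Seq library made from pooled liver RNA. The sample labels give 3 pigs per pool, while the methods describe groups of more pigs pooled together, so the number pooled is uncertain. The variation between pigs is unknown, and no difference below was tested between conditions.

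In the liver, citrate exported from mitochondria is cleaved to acetyl-CoA, which is carboxylated to malonyl-CoA and then joined, with reducing power from NADPH, into palmitate. Elongases lengthen the chain and desaturases introduce double bonds, which yields oleate from the saturated product and the long polyunsaturated fatty acids from those of the diet. The genes of this route are known as targets of SREBP-1, which follows insulin and sterols, and of ChREBP, which follows carbohydrate.

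FPKM, a read count divided by transcript length and by a divisor for the library, was used as deposited. The divisor is not stated, and the values are not on the usual FPKM scale, since an FPKM of 1 corresponds to 2.51 (IM), 3.42 (CM) and 2.04 (CMT) reads on 1 kb. A minimum of 1 is therefore less strict than it would be on that scale. Levels of different genes can therefore be set side by side per length. The FPKM steps gave back 32197633 (IM), 36126736 (CM) and 25419904 (CMT) reads, and 3 reads on a gene of 1 kb correspond to an FPKM of 1.20, 0.877 and 1.47 in these libraries. Ratios are given with exact 95% intervals on these reads, which cover counting error only. A gene was counted as differing when its 2 values were 1.5-fold apart or more, provided that it was listed as mRNA and reached an FPKM of 1 in every library. The hepatocyte markers ALB, TTR, APOA1, APOB, TF, SERPINA1, CPS1 and HNF4A were present in all 3 libraries. Their summed FPKM was 984341 (IM), 735733 (CM) and 731141 (CMT), mostly ALB, while the median log2 ratio of the 8 markers was -0.33 for CM to IM and 0.18 for CMT to CM. In whole liver, fewer cells of a type and less RNA per cell cannot be told apart.

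The levels of the 9 genes spanned a wide range within each library. In IM the order from the highest to the lowest FPKM was SREBF1, SCD, MLXIPL, FASN, ACACA, ELOVL6, FADS1, ACLY and ME1, and the counting intervals of the neighbours ELOVL6 and FADS1 overlapped. In CM the order was SCD, SREBF1, MLXIPL, FASN, FADS1, ELOVL6, ACLY, ACACA and ME1, with overlapping intervals for FADS1 and ELOVL6 and for ACLY and ACACA. In CMT the order was SREBF1, SCD, MLXIPL, FASN, ELOVL6, ACACA, FADS1, ACLY and ME1, with overlapping intervals for ELOVL6 and ACACA and for FADS1 and ACLY. ACACA thus stood above ELOVL6, FADS1 and ACLY in IM, and below ELOVL6 and FADS1 and level with ACLY in CM. The highest level was in IM for 2 genes, ACACA and FASN, in CM for ACLY and FADS1, and in CMT for the other 5. The lowest level was in CM for 3 genes, ACACA, FASN and MLXIPL, in CMT for FADS1, and in IM for the other 5. Several of these ranks lay within counting error. The intervals of the ratios held 1 for ACLY and ELOVL6 in all 3 comparisons and for MLXIPL in CMT versus IM. They also held 1 for ME1 in CM versus IM and in CMT versus CM. With equal column sums SCD and ELOVL6 were highest in CM, at log2 ratios of CMT to CM of -0.16 and -0.0016.

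**Figure D1:**
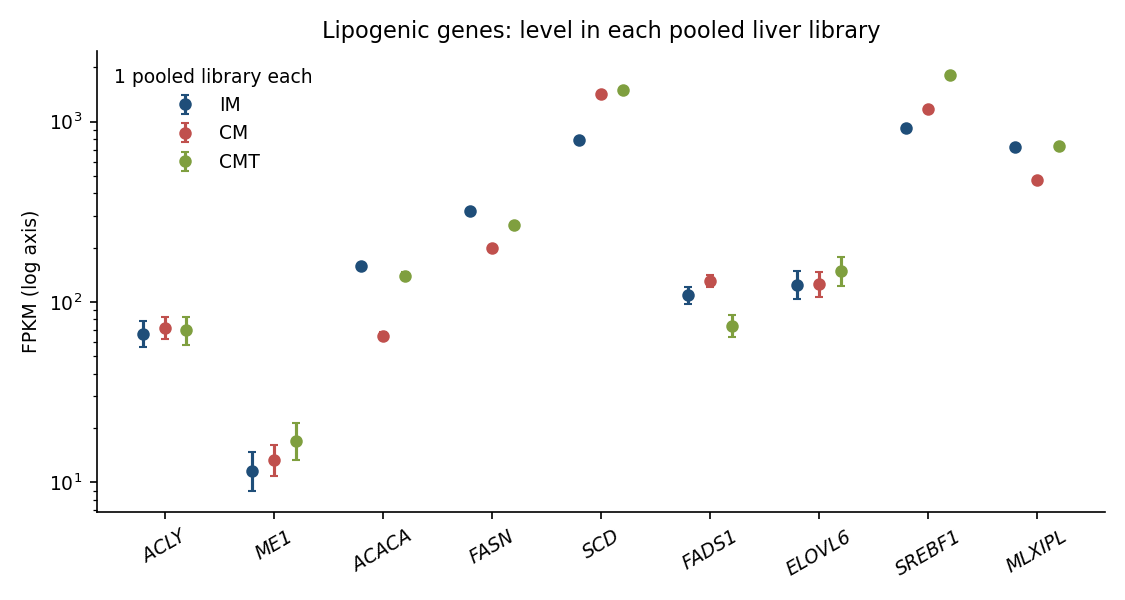
FPKM (log axis) of the 9 genes in the IM, CM and CMT libraries, 1 pooled library each, with bars for the exact 95% counting interval. ACACA is at 158 (IM), 64.9 (CM) and 140 (CMT), while SCD is at 788, 1414 and 1506.

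The enzymes that supply acetyl-CoA and NADPH differed little between the libraries. ACLY, the ATP citrate lyase that releases acetyl-CoA in the cytosol, had FPKM values of 66.6 (IM), 72.0 (CM) and 69.6 (CMT). Its ratio was 1.08 for CM to IM (95% interval 0.872 to 1.34) and 0.967 for CMT to CM (0.769 to 1.21), so in the first comparison a ratio of up to 1.34 lay within counting error. ME1, the cytosolic malic enzyme that forms NADPH, had the lowest level of the 9 genes in every library, with FPKM values of 11.6 (IM), 13.3 (CM) and 17.0 (CMT). It rested on 64, 100 and 76 reads. Its ratio of 1.46 for CMT to IM (1.03 to 2.07) was the only one of its 3 ratios with an interval that left out 1, and it stayed below 1.5-fold.

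The enzymes that build the chain had their lowest levels in CM. ACACA encodes acetyl-CoA carboxylase 1, which makes malonyl-CoA for synthesis and is usually taken as the committed step. Its FPKM was 158 (IM), 64.9 (CM) and 140 (CMT), so that CM stood apart and the other two lay close together. ACACA was 2.43-fold lower in CM than in IM (95% interval 2.28 to 2.59) and 2.16-fold higher in CMT than in CM (2.02 to 2.31). Its ratio of CMT to IM was 0.889 (0.838 to 0.943). Of the mRNA features, 2.75% had a smaller ratio of CM to IM than ACACA, and 3.70% had a larger ratio of CMT to CM. FASN, the fatty acid synthase that joins malonyl-CoA units into palmitate, had FPKM values of 318 (IM), 198 (CM) and 266 (CMT). FASN was 1.61-fold lower in CM than in IM (1.53 to 1.69), while its ratio of 1.34 for CMT to CM (1.27 to 1.42) did not reach 1.5-fold. The FASN level in CMT lay between those of the other libraries, with a ratio to IM of 0.835 (0.791 to 0.882).

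The desaturases followed other orders than the synthases. SCD, the stearoyl-CoA desaturase that makes oleate and palmitoleate, had FPKM values of 788 (IM), 1414 (CM) and 1506 (CMT). Both libraries from castrated pigs lay above the intact one, and SCD was 1.80-fold higher in CM than in IM (95% interval 1.75 to 1.84) and 1.91-fold higher in CMT than in IM (1.86 to 1.96). The ratio of CMT to CM was 1.06 (1.04 to 1.09), and this small difference changed its sign with the scaling of the libraries, from 0.09 on the log2 scale as deposited to -0.15 when scaled to recovered reads. FADS1, the delta-5 desaturase that completes arachidonate and eicosapentaenoate, had FPKM values of 109 (IM), 131 (CM) and 73.9 (CMT). CMT was the low library here, 1.77-fold below CM (1.51 to 2.09) and 1.47-fold below IM (1.23 to 1.76), whereas the ratio of CM to IM was 1.20 (1.05 to 1.38).

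The elongase ELOVL6, which extends palmitate to stearate, had FPKM values of 125 (IM), 125 (CM) and 148 (CMT). The intervals of all 3 ratios held 1, with 1.0 for CM to IM (95% interval 0.788 to 1.28), 1.19 for CMT to CM (0.927 to 1.51) and 1.19 for CMT to IM (0.913 to 1.55). These intervals are wide because only 120, 164 and 116 reads were recovered for ELOVL6. The recovered length of 383 bases is short, and if a common factor of its reads was lost the true intervals are narrower.

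The transcription factors had different orders. SREBF1, which encodes SREBP-1, had FPKM values of 917 (IM), 1169 (CM) and 1823 (CMT), so its level was lowest in IM and highest in CMT. Its ratio was 1.28 for CM to IM (95% interval 1.20 to 1.35), 1.56 for CMT to CM (1.48 to 1.64) and 1.99 for CMT to IM (1.88 to 2.11). Only 2.19% of the mRNA features had a larger ratio of CMT to IM than SREBF1. MLXIPL, which encodes ChREBP, had FPKM values of 725 (IM), 474 (CM) and 731 (CMT). Here CM was the low library, 1.53-fold below IM (1.47 to 1.59), and CMT was 1.54-fold above CM (1.48 to 1.61), with a ratio of CMT to IM of 1.01 (0.967 to 1.05). The intervals of MLXIPL in CM versus IM and in CMT versus CM and of SREBF1 in CMT versus CM hold the threshold of 1.5-fold.

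In CM versus IM, 1 of the 8 genes counted was at least 1.5-fold higher (SCD) and 3 were at least 1.5-fold lower (ACACA, FASN and MLXIPL). Over all 15613 mRNA features above the minimum, 23.2% differed by as much, 11.1% higher and 12.1% lower. In CMT versus CM, 3 were higher (ACACA, SREBF1 and MLXIPL) and 1 was lower (FADS1), against 25.7% of all features, 12.1% higher and 13.5% lower. In CMT versus IM, 2 were higher (SCD and SREBF1) and 0 were lower, against 16.8% of all features, 6.67% higher and 10.1% lower. With 1 library per group no tool was run that gives these counts a p-value. The first and second comparison share the CM library, so a value that is low in CM enters both. Over the 9 genes the median log2 ratio was 0.11 for CM to IM, 0.35 for CMT to CM and 0.06 for CMT to IM, beside -0.02, 0.01 and -0.01 over all features, whose ratios had an SD of 0.65, 0.72 and 0.52. In CM versus IM the genes lay on both sides, with log2 ratios that ran from -1.28 for ACACA to 0.84 for SCD.

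**Figure D2:**
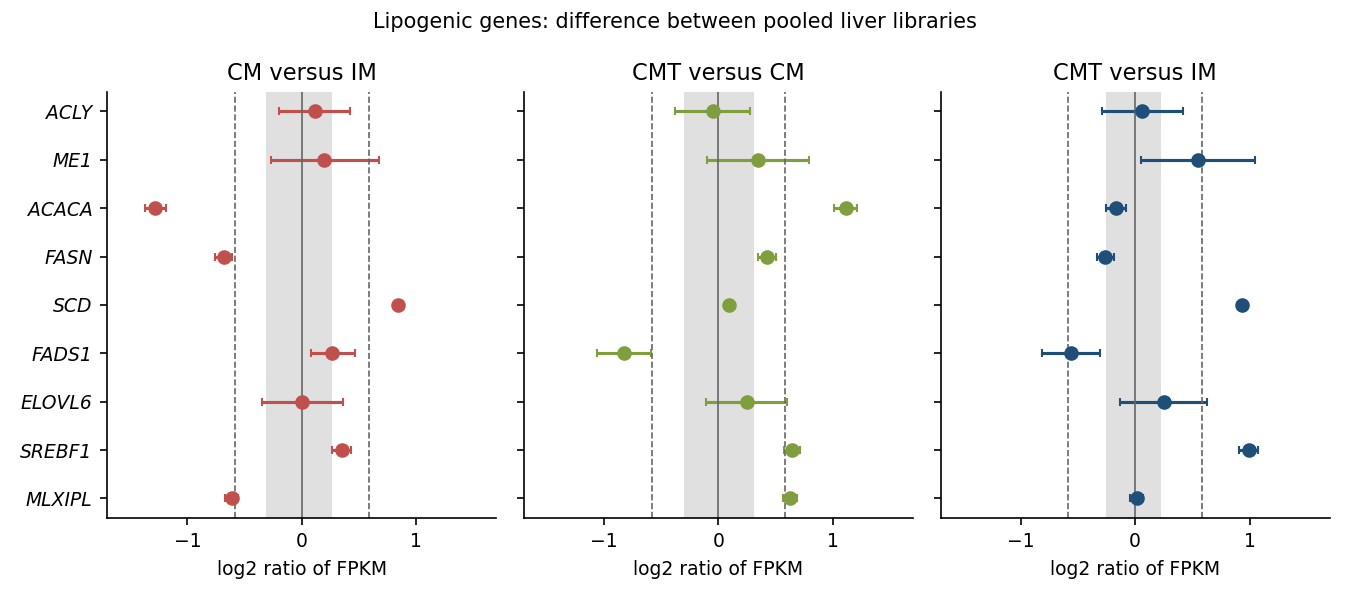
Log2 ratio of FPKM of the 9 genes in the 3 comparisons, with exact 95% counting intervals. Dashed lines mark 1.5-fold and the grey band spans the lower to the upper quartile of all mRNA features. In CM versus IM, ACACA lies at -1.28 and SCD at 0.84, on opposite sides of the band.

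These calls depend in part on how the libraries are put on one scale. The deposited columns sum to 8660405 (IM), 7247699 (CM) and 8603712 (CMT), and scaling them to equal sums raised every log2 ratio of CM to IM by 0.26 and lowered every log2 ratio of CMT to CM by 0.25. Scaling to recovered reads shifted them by 0.28 and -0.24. Of the features that differed between CM and IM, 1737 were higher and 1884 lower as deposited, 3239 and 1073 with equal sums, and 3432 and 1003 with recovered reads. Between CMT and CM, the counts were 1896 higher and 2110 lower as deposited, 1051 and 3572 with equal sums, and 1065 and 3497 with recovered reads. ACACA and SCD kept their calls of CM versus IM under both, at log2 ratios of -1.0 and 1.12 with recovered reads. FASN and MLXIPL fell inside 1.5-fold, at -0.40 and -0.33, and SREBF1 passed it, at 0.63. In CMT versus CM, ACACA at 0.87 and FADS1 at -1.06 kept their calls with recovered reads, and SREBF1 at 0.40 and MLXIPL at 0.39 did not. All these values are relative to the shifts, and none of the called ratios of the 9 genes changed its sign.

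**Figure D3:**
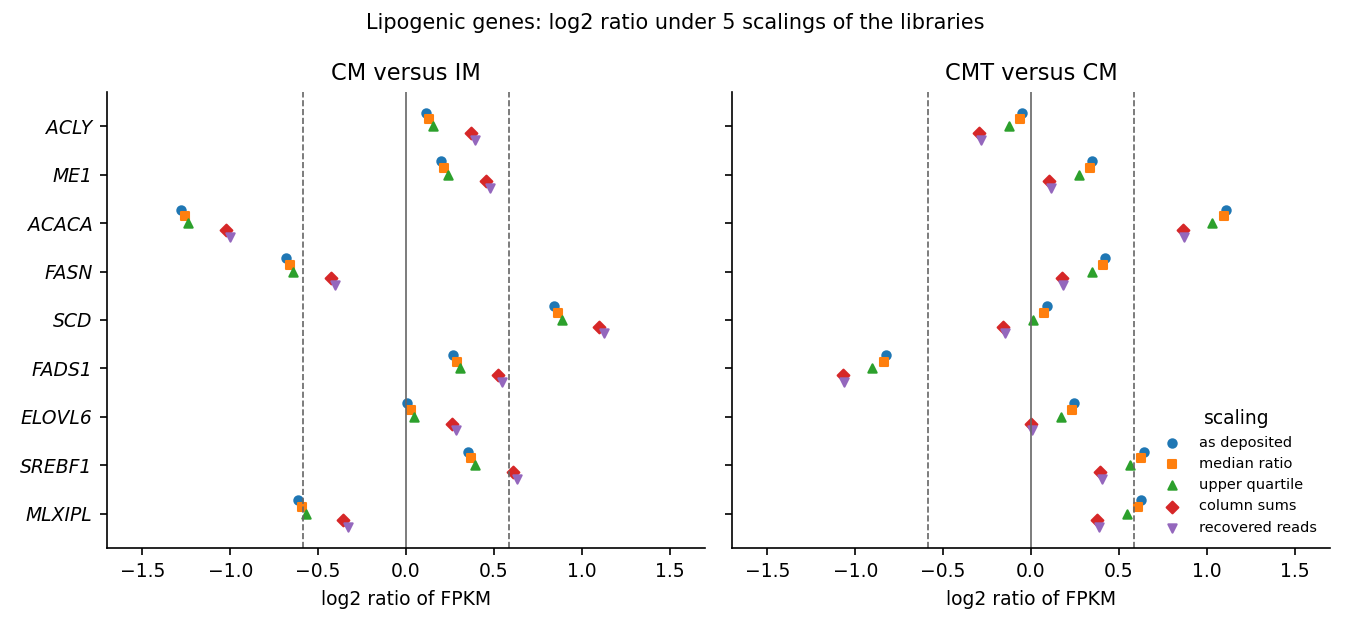
Log2 ratio of FPKM of the 9 genes as deposited and after 4 other scalings of the libraries, for CM versus IM and CMT versus CM, with dashed lines at 1.5-fold. The scalings move all genes together, by at most 0.28, and ACACA stays past 1.5-fold in both panels.

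Ratios between genes of the same library do not depend on the scaling. The ratio of SCD to ACACA was 5.0 in IM (95% interval 4.79 to 5.22), 21.8 in CM (20.7 to 23.0) and 10.7 in CMT (10.24 to 11.3). Desaturase mRNA relative to carboxylase mRNA was thus 4.36-fold greater in CM than in IM, and CMT lay between them. The ratio of SCD to FASN had the same order, with 2.47 (IM), 7.13 (CM) and 5.66 (CMT). FASN relative to ACACA was 2.02 in IM (1.92 to 2.13), 3.06 in CM (2.87 to 3.26) and 1.90 in CMT (1.79 to 2.02), so the synthase was less low in CM than the carboxylase. FASN relative to MLXIPL was nearly level between IM at 0.439 (0.420 to 0.459) and CM at 0.419 (0.399 to 0.439), and it was 0.364 in CMT (0.346 to 0.383). FASN relative to SREBF1 was 0.347 (IM), 0.170 (CM) and 0.146 (CMT). The ratio of SREBF1 to MLXIPL was 1.27 in IM (1.20 to 1.33), 2.47 in CM (2.36 to 2.58) and 2.50 in CMT (2.38 to 2.62). Both libraries from castrated pigs, with and without testosterone, therefore shared this balance of the factors, apart from that of the intact library.

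**Figure D4:**
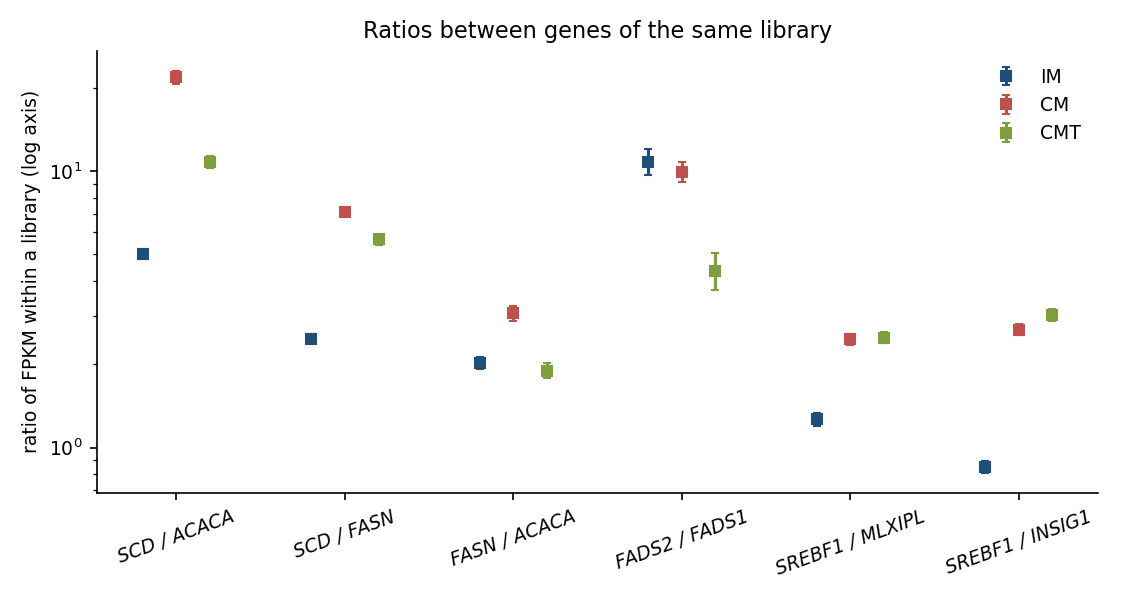
Ratio of FPKM between pairs of genes of the same library (log axis), with exact 95% counting intervals, for IM, CM and CMT. SCD to ACACA runs from 5.0 in IM to 21.8 in CM and 10.7 in CMT, SREBF1 to MLXIPL is 1.27 in IM and near 2.5 in both others, and FADS2 to FADS1 is lowest in CMT at 4.33.

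The other genes of the route and its control comprised 54 genes in 7 lists, of which 47 had a row and 43 passed as mRNA that reached an FPKM of 1 in every library. MLYCD, MID1IP1, CYB5R3, MBTPS2, RXRA, SP1 and PNPLA3 were not analysed here. IDH1 and ELOVL3 were listed at 0 in all 3 libraries, ELOVL4 was listed at 0 in IM and CM, and INSIG2 was listed as another kind of RNA. As deposited, 12 of the 43 (27.9%) differed in CM versus IM, 11 (25.6%) in CMT versus CM and 5 (11.6%) in CMT versus IM, beside 23.2%, 25.7% and 16.8% of all features. In CM versus IM, 4 of the 43 were at least 1.5-fold higher and 8 lower. In CMT versus CM, 8 were higher and 3 lower (FADS2, PPARGC1B and PRKAB2). In CMT versus IM, 2 were higher and 3 lower (FADS2, INSIG1 and TXNIP). Their median log2 ratio was -0.22 for CM to IM, 0.27 for CMT to CM and 0.04 for CMT to IM. Over all features it was -0.02, 0.01 and -0.01. With equal column sums the first became 0.04 and the second 0.02. Then 6 were higher and 6 lower in CM versus IM, and 5 higher and 6 lower in CMT versus CM. Of all 15613 features, 3239 were then higher and 1073 lower in CM versus IM, and 1051 higher and 3572 lower in CMT versus CM. The numbers of higher and lower calls thus depended on the scaling. Each scaling shifts all features alike, so the place of these genes relative to all features did not change. Of the 43, 5 had a level in CM that was below both others by 1.5-fold or more, ACACB, THRSP, HACD3, MBTPS1 and TXNIP, against 7.12% of all features. A level in CM above both others by as much was found for 2, PPARGC1B and PRKAB2, against 6.87%.

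Among the genes that govern malonyl-CoA and its use, both that had a row were low in CM. ACACB, acetyl-CoA carboxylase 2, whose malonyl-CoA restrains the entry of fatty acids into mitochondria, had FPKM values of 15.3 (IM), 2.50 (CM) and 13.4 (CMT). It was 6.13-fold lower in CM than in IM (95% interval 4.25 to 9.06), on 162 and 36 reads, and 5.36-fold higher in CMT than in CM (3.65 to 8.02). ACACA stood at 10.3 times the level of ACACB in IM, 26.0 times in CM and 10.5 times in CMT, so the mitochondrial form was the lower of the pair by a larger factor in CM. THRSP, a small protein that promotes lipogenesis in liver and is also known as Spot 14, had FPKM values of 550 (IM), 262 (CM) and 1360 (CMT). All 3 libraries were apart, with CM 2.10-fold below IM (1.97 to 2.23), CMT 5.18-fold above CM (4.91 to 5.47) and CMT 2.47-fold above IM (2.36 to 2.59).

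Of the 4 other supply genes that passed, CM was higher than IM for 0 and lower for 1 (25.0%, beside 23.2% of all features). The gene was ACSS2, the cytosolic acetyl-CoA synthetase, with FPKM values of 217 (IM), 127 (CM) and 184 (CMT). ACSS2 was 1.71-fold lower in CM than in IM (95% interval 1.54 to 1.89), a call that was lost with equal column sums. The citrate carrier SLC25A1, which brings out the substrate of ACLY, had FPKM values of 611 (IM), 481 (CM) and 669 (CMT). PGD, which forms NADPH in the pentose phosphate pathway, had FPKM values of 380 (IM), 423 (CM) and 317 (CMT). Neither gene reached 1.5-fold in any comparison. Of the 9 elongation genes that passed, CM was higher than IM for 1 (ELOVL7) and lower for 1 (HACD3). CMT was higher than CM for 2 (HACD1 and HACD3) and lower for 0. Thus 22.2% differed in each comparison, near the 23.2% and 25.7% of all features. HACD3, a dehydratase of the elongation cycle that the table lists under the older symbol PTPLAD1, had FPKM values of 1555 (IM), 660 (CM) and 1674 (CMT). It was 2.35-fold lower in CM than in IM and 2.54-fold higher in CMT than in CM. TECR, the reductase that ends each cycle, had FPKM values of 695 (IM), 477 (CM) and 669 (CMT) and did not reach 1.5-fold.

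FADS2, the delta-6 desaturase that acts before FADS1 in the polyunsaturated route, showed the low level in CMT even more than FADS1. Its FPKM was 1172 (IM), 1298 (CM) and 320 (CMT). FADS2 was 4.06-fold lower in CMT than in CM (95% interval 3.79 to 4.34) and 3.66-fold lower in CMT than in IM (3.42 to 3.93). FADS2 relative to FADS1 was 10.8 in IM (9.68 to 12.04), 9.91 in CM (9.11 to 10.8) and 4.33 in CMT (3.72 to 5.07). FADS3, named after its values were seen, lies beside both in the pig genome and had FPKM values of 11.1 (IM), 11.5 (CM) and 11.5 (CMT), without such a low value in CMT. The ratio of SCD to FADS2 was 0.672 (IM), 1.09 (CM) and 4.71 (CMT). Its rise from CM to CMT came mostly from the lower FADS2, as SCD had a ratio of CMT to CM of 1.06. CYB5A, the cytochrome b5 that passes electrons to the desaturases, had FPKM values of 9759 (IM), 9013 (CM) and 11058 (CMT).

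INSIG1, which holds SREBP in the endoplasmic reticulum and is itself an SREBP target, had FPKM values of 1075 (IM), 439 (CM) and 605 (CMT). It was 2.45-fold lower in CM than in IM (95% interval 2.36 to 2.55) and 1.78-fold lower in CMT than in IM (1.71 to 1.85). SREBF1 relative to INSIG1 was 0.853 (IM), 2.67 (CM) and 3.01 (CMT). MBTPS1, the site-1 protease that cuts SREBP, had FPKM values of 449 (IM), 245 (CM) and 507 (CMT), and it was 1.83-fold lower in CM than in IM and 2.07-fold higher in CMT than in CM. SREBF1 relative to SREBF2, which encodes the SREBP that serves sterol synthesis, was 3.70 (IM), 6.29 (CM) and 6.49 (CMT). NR1H3, which encodes the oxysterol receptor LXR-alpha that activates SREBF1, had FPKM values of 1117 (IM), 1061 (CM) and 1279 (CMT) and reached 1.5-fold in no comparison. PPARGC1B, a coactivator of SREBP, had FPKM values of 4.42 (IM), 7.94 (CM) and 4.66 (CMT), with no reads recovered and so no interval.

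The genes known to respond to carbohydrate and insulin had unlike patterns. TXNIP, a ChREBP target that limits glucose uptake, had FPKM values of 4951 (IM), 1577 (CM) and 2523 (CMT). It was 3.14-fold lower in CM than in IM (95% interval 3.04 to 3.25) and 1.6-fold higher in CMT than in CM (1.54 to 1.66), and it was 1.96-fold lower in CMT than in IM. The call of TXNIP in CMT versus CM was lost with equal column sums. PKLR, the liver pyruvate kinase and another ChREBP target, had FPKM values of 469 (IM), 341 (CM) and 466 (CMT), below 1.5-fold throughout.

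AMP-activated kinase phosphorylates and restrains acetyl-CoA carboxylase. Of its 7 listed genes, CM was higher than IM for 1 (PRKAB2) and lower for 1 (PRKAG2), and CMT was higher than CM for 0 and lower for 1 (PRKAB2), so 28.6% and 14.3% differed beside 23.2% and 25.7% of all features. PRKAB2, a beta subunit, had FPKM values of 28.3 (IM), 50.1 (CM) and 22.7 (CMT). It was 1.77-fold higher in CM than in IM (95% interval 1.57 to 2.0) and 2.20-fold lower in CMT than in CM (1.92 to 2.54). The most abundant of the list, STK11, the upstream kinase, had FPKM values of 298 (IM), 289 (CM) and 349 (CMT), and the subunit PRKAG1 had an FPKM of 243, 203 and 245.

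**Figure D5:**
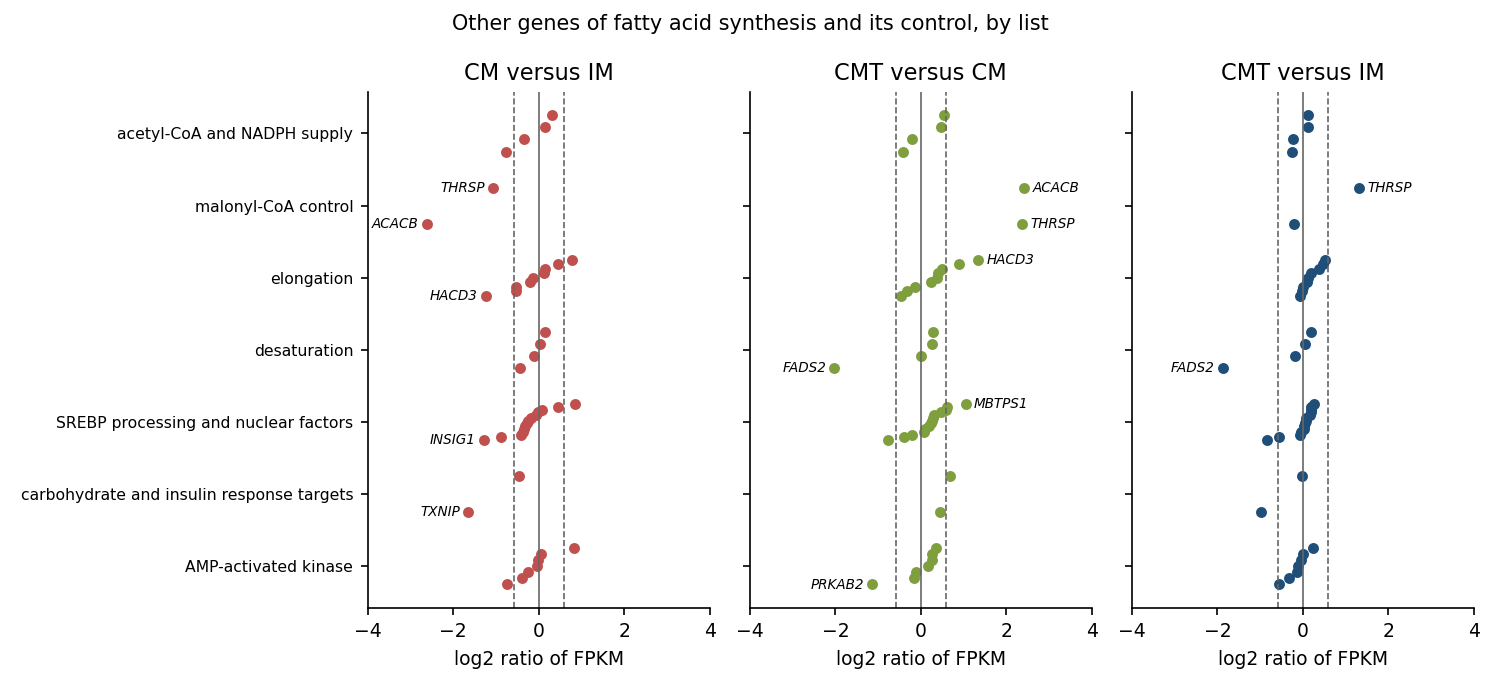
Log2 ratio of FPKM of other genes of the route that passed the minimum, by list, in the 3 comparisons. Each point is a gene, dashed lines mark 1.5-fold, and genes that differ by at least 2-fold are named. ACACB, THRSP and HACD3 lie to the left in CM versus IM and to the right in CMT versus CM, and FADS2 lies to the left where CMT is compared.

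Likeness of pattern was measured as the Euclidean distance between genes in 2 log2 ratios, that of CM to IM and that of CMT to CM, over the 52 genes of the lists with values in these 3 libraries. The nearest gene was HACD3 for ACACA, at a distance of 0.24, ACSS2 for FASN, at 0.14, and TECR for MLXIPL, at 0.15. SCD had no close partner, with ELOVL7 at 0.42, and the nearest gene to FADS1 was ELOVL2 at 0.40. SREBF1 was nearest to ELOVL1, at 0.33, and so was ME1, at 0.06. ACLY was nearest to HACD4, at 0.09, and ELOVL6 to STK11, at 0.05. With 3 libraries such distances are easily small, and between 34 (ME1) and 1096 (FADS1) of all mRNA features lay as near to a gene as its nearest listed one, with 99 for ACACA, 427 for SCD and 522 for ACLY.

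Genes of adjoining pathways were counted in the same way, beside 12.1% of all features lower in CM than IM and 12.1% higher in CMT than CM. Of 16 beta-oxidation genes that passed, CM was higher than IM for 1 and lower for 10, with a median log2 ratio of -0.69, and CMT was higher than CM for 10 and lower for 1, with a median of 0.63. With equal column sums, which shift all ratios by 0.26 and -0.25, 3 were lower in the first and 6 higher in the second. The background falls as well under that scaling. Of all 15613 features, 1073 instead of 1884 were lower in CM than IM, and 1051 instead of 1896 higher in CMT than CM. CPT1A, the carnitine palmitoyltransferase that malonyl-CoA inhibits, had FPKM values of 831 (IM), 353 (CM) and 812 (CMT). Its order over the libraries was that of ACACA. Of 16 sterol synthesis genes, CM was higher than IM for 0 and lower for 5, and CMT was higher than CM for 12 and lower for 0, which became 3 lower and 6 higher with equal column sums. Of 8 triglyceride synthesis genes, CM was higher than IM for 0 and lower for 4, and CMT was higher than CM for 3 and lower for 1, which became 2 lower and 1 higher with equal column sums. DGAT2, which makes triglyceride from newly formed fatty acids, had FPKM values of 740 (IM), 862 (CM) and 470 (CMT), and like FADS1 it was lowest in CMT.

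Cells other than hepatocytes also express lipogenic genes, adipocytes foremost. Of 8 adipocyte markers, 6 had a row, and ADIPOQ and LEP were listed at 0 in all 3 libraries. IDH1 was listed at 0 as well, and whether a 0 means an absent transcript was not tested. The summed FPKM of the adipocyte list was 107 (IM), 57.5 (CM) and 90.2 (CMT). Its low value in CM came mostly from CIDEC, at 84.1 (IM), 40.1 (CM) and 77.2 (CMT). CIDEA, at 6.94 (IM), 2.55 (CM) and 2.67 (CMT), was low in both libraries from castrated pigs. PLIN1, at 11.6 (IM), 9.80 (CM) and 8.70 (CMT), and LIPE, at 4.12 (IM), 5.04 (CM) and 1.69 (CMT), were lowest in CMT. The summed FPKM of macrophage markers (7 of 8) was 12031 (IM), 11623 (CM) and 12644 (CMT), and that of stellate cell markers (8 of 8) was 1511, 1605 and 1345. Single macrophage markers ran from -2.32 to 0.40 in log2 ratio of CM to IM, and from -0.24 to 1.94 in that of CMT to CM. T and NK cell markers (8 of 8) summed to 585 (IM), 754 (CM) and 477 (CMT). Of these 8, 0 differed by 1.5-fold in CM versus IM, beside 23.2% of all features. All 8 were nevertheless higher in CM, with log2 ratios from 0.08 to 0.57 and a median of 0.45. Equal column sums raise each of these ratios by 0.26, which carries the largest past 1.5-fold, so the count of 0 depends on the scaling. By 1.5-fold, 5 were lower in CMT than in CM and 4 in CMT than in IM, beside 13.5% and 10.1% of all features. Endothelial markers (6 of 8) summed to 1228, 1100 and 1153, and cholangiocyte markers (4 of 6) to 856, 805 and 1185, mostly SPP1. The other cholangiocyte markers, EPCAM, SOX9 and CFTR, were 1.71-fold, 1.83-fold and 1.68-fold higher in CM than in IM. Erythroid markers (5 of 6) summed to 17296 (IM), 3424 (CM) and 5195 (CMT), nearly all of it HBB. The part of these cells in the levels of the lipogenic genes was not tested.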

How the data were processed

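RNA-Seq was performed on 3 liver libraries, IM, CM and CMT, each from pooled pigs (3 per the labels). Paired-end reads of 100 bp were checked with FastQC and mapped to Sscrofa 10.2 with TopHat by the authors, who deposited FPKM per feature. The counting program and annotation were not given in the sources used here. From the steps of the deposited FPKM values, reads were recovered for 23090 of 24277 features above 0 (95.1%), with library divisors of 2.51, 3.42 and 2.04. The smallest fitting length was taken, so a common factor can be lost. The multiple of the FPKM steps was chosen to bring as many of 13 mitochondrial genes as possible within 2 bases of their annotated length. This held for 9 of them, which is the outcome of that choice and no check of it. The recovery of lengths and reads was tested on simulated data made with the same divisors, which leaves the divisors untested.

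Ratios were computed without rescaling or pseudocount. An mRNA feature counted as differing from 1.5-fold upwards if it reached an FPKM of 1 in every library. Intervals are Clopper-Pearson (95%). With 1 library per group, the DEGSeq test of the study was not repeated and no p-value was computed. The members and lists were chosen with earlier results of these data known. Other pathway genes were named when CM differed by 1.5-fold from both libraries in the same direction, or when among the 2 most abundant of their list. CPT1A, DGAT2 and the gene nearest in pattern to each member were also named, and any others (SREBF2, FADS3, PRKAG2, HACD1) after their values were seen. Some genes are not reported here by name, though they remain in the counts. The 9 alternative settings covered the FPKM minimum, a pseudocount, the fold threshold, the interval and 4 scalings. RefSeq (Sscrofa11.1) gave gene symbols, neighbourhood and the mitochondrial gene lengths used to set the library divisors, and no sequence is shown. The recovered reads and their intervals therefore rest on those lengths. Python 3.11.15, numpy 2.4.6, pandas 2.3.3, scipy 1.17.1 and matplotlib 3.10.9 were used.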

Additional observations from a re-analysis of the deposited data

How the results depend on the processing

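The 9 alternative settings were each applied to the calls. Across 5 of them that rescale the libraries or add a pseudocount, 107 of 135 log2 ratios of the 9 genes stayed within their counting interval, 28 moved outside it and 0 of the called ratios changed sign. As reported, 4, 4 and 2 of the genes differed by 1.5-fold between CM and IM, CMT and CM, and CMT and IM, in this order, with 12, 11 and 5 pathway genes and 3621, 4006 and 2618 mRNA features. With a threshold of 2-fold, these were 1, 1 and 0 genes (ACACA in the first and second comparison), 6, 6 and 3 pathway genes and 1464, 1744 and 959 mRNA features. An FPKM minimum of 10 left 2027, 2303 and 1088 mRNA features, since fewer were tested, and in CMT versus CM it turned the split to 1324 higher and 979 lower. Requiring an interval without 1 left 1507 mRNA features in CMT versus IM and changed no call of the 9 genes. In CMT versus CM, 2 genes (ACACA and FADS1) differed under scaling to upper quartiles, to column sums or to recovered reads. Scaling to upper quartiles also took MLXIPL out of CM versus IM and added FADS1 to CMT versus IM as lower, and recovered reads added ME1 there as higher. The cause of the unequal sums was not tested. Leaving out a replicate could not be done, and depth limits mainly ME1, ACLY, ELOVL6 and ACACB. No paired analysis was possible because each group is 1 library.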
